A study of Mus musculus with 10 samples.

Results

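Small interfering RNA (siRNA) knockdown of Ino80e, a small subunit of the INO80 chromatin remodelling complex, was compared with control siRNA in J1, an established line of mouse embryonic stem cells. The samples were chosen by their titles: 2 cultures given Ino80e siRNA and 2 given non-targeting (NT) siRNA, which are 4 of the 10 samples in the series. The other 6 had received siRNA against Ino80c, Ino80b or Ino80, 2 cultures each. All cultures, controls included, were kept in ESGRO, a commercial stem cell medium, were moved to M15 medium for transfection and harvested after 96 hours, on day 4. RNA of each culture was hybridised to 1 single-colour expression array, and the design text of the series calls the 2 cultures of a group biological replicates. No genotype or passage is given for the line. A knockdown lowers a transcript without removing it.

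INO80 is built around the ATPase Ino80, which moves nucleosomes and exchanges histone variants. Around it sit actin-related proteins, the Ruvbl1 and Ruvbl2 ATPases, the DNA-binding factor Yy1 and small subunits such as Ino80b, Ino80c and Ino80e. In mouse embryonic stem cells the complex is known to occupy promoters of pluripotency genes together with the transcription factors of that network, and depletion of its ATPase disturbs self-renewal.

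Levels are given as the log2 of the probe signal after subtraction of the array's own 75th percentile, so a level of 0 equals that percentile and differences are log2 fold changes. Levels of different probes were not set against each other, except in the summed marker signals. Those sums add linear levels, so the brightest probes weigh most. Tests used limma, a linear model fitted over 20663 genes and all 10 arrays with a shared estimate of the spread, and p-values were adjusted over all genes by the Benjamini-Hochberg method. On every array all 10 embryonic stem cell markers examined, among them Pou5f1, Nanog and Zfp42, were well above background. That alone does not settle the label of the cells. All 4 neural markers examined, and 66.4% to 79% of all probes, were well above background too. Replicates correlated at r = 0.991 for Ino80e siRNA and r = 0.987 for NT siRNA across the genes tested. The 2 NT arrays were the only arrays on their slide, whereas the 2 Ino80e arrays shared a slide with the 2 Ino80c arrays, and each slide had its own scan. Slide and treatment therefore cannot be told apart in Ino80e against NT, and Ino80c is the one knockdown that can be set against Ino80e within a slide.

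The targeted transcript was lower in Ino80e siRNA cells. Ino80e read 3.64 and 3.41 in Ino80e siRNA cells, against 5.02 and 4.43 in NT cells, and the 4 values did not overlap. It stood at 43.4% of the NT level (95% interval 27.7 to 68%), a log2 difference of -1.20 ± 0.28 (SE, n = 2 each), with an adjusted p of 0.0817 in limma that missed the threshold of 0.05. In the other knockdowns the same transcript stood at 103% of NT with Ino80c siRNA, 127% with Ino80b siRNA and 96.7% with Ino80 siRNA. The probe that reads Ino80e lies on the minus strand of chromosome 7, at chr7:122948998-122949057 on the build mm7. It is shown because the check of the knockdown rests on it alone; these are the first 30 of its 60 bases.
Ino80e probe: ctttagaagagcagctacgcagggctggga

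Other subunits of the complex were measured at close to control levels or moved in both directions. Of 15 listed INO80 genes, the targeted Ino80e among them, 14 were tested and none passed an adjusted p of 0.05. At 0.1, a looser threshold that was chosen after no gene had passed 0.05, 2 were higher and 2 lower. The 2 lower were Ino80e itself, the siRNA target, and Ino80b. Of all genes 7.6% were higher and 2.55% lower at that threshold. The 14 genes, target included, had a median difference of -0.06, against 0.19 for all genes tested. Ino80, the ATPase, read 2.44 and 2.31 in Ino80e siRNA cells and 2.43 and 2.35 in NT cells, a difference of -0.01. The other 2 subunits targeted in the series behaved differently from each other. Ino80b, a zinc-finger subunit, read -2.44 and -2.90 with Ino80e siRNA, against -1.40 and -1.17 with NT siRNA (-1.39 ± 0.35, adjusted p = 0.0891). Ino80c read 1.48 and 1.53 with Ino80e siRNA and 1.14 and 0.83 with NT siRNA (0.52, adjusted p = 0.104), but a second probe of that gene differed by 0.01. Uchl5, a deubiquitinase held by the complex, read 5.01 and 5.2 with Ino80e siRNA, above 4.49 and 4.33 with NT siRNA (0.69 ± 0.15, adjusted p = 0.081). Ruvbl1 differed by 0.47 ± 0.12 (adjusted p = 0.0905; 0.0 on a dimmer probe) and its partner Ruvbl2 by -0.31 ± 0.14 (adjusted p = 0.192). The actin-related subunits Actr5 and Actr8 differed by 0.27 ± 0.18 and 0.15 ± 0.12. Actl6a, an actin-like subunit that other remodellers share, differed by -0.04 ± 0.12. Yy1 differed by -0.27 ± 0.15 (-0.30 and 0.25 on dimmer probes), Nfrkb by -0.32 ± 0.17, Mcrs1 by -0.20 ± 0.13 and Tfpt by -0.07 ± 0.14, all within 0.5 of zero.

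**Figure D1:**
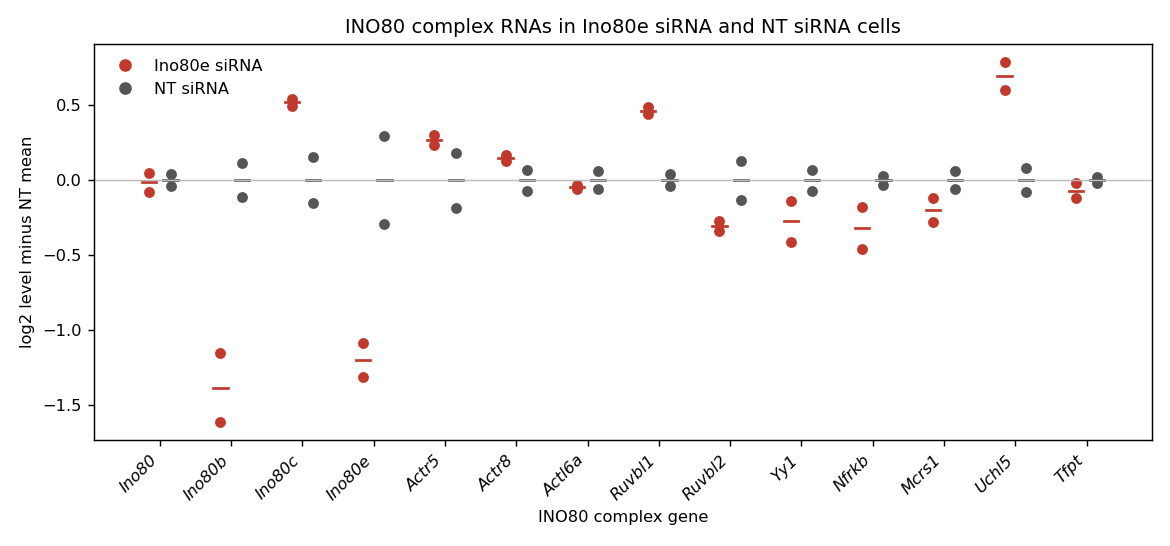
Levels of the 14 INO80 complex genes in Ino80e siRNA cells (left dot pair of each gene) and NT cells (right pair), each array as a dot, on the log2 scale minus the NT mean of the gene. Ino80e and Ino80b lie more than 1 log2 unit below their NT mean in Ino80e siRNA cells, and Uchl5 lies about 0.7 above it.

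Since Yy1 is a DNA-binding member of the complex, the RefSeq promoter windows (GRCm38.p6, 250 bases before to 50 bases after each start) were searched for its core motif GCCATNTT on both strands. Of the 15 listed complex genes 11 had a window, and of their 12 windows 2 held the motif (16.7%), those of Ino80e and Ino80b. These are the 2 complex genes with the lowest measured differences. Ino80e was the siRNA target, so its lower level followed from the design and cannot bear on the motif. Whether the motif bears on the level of Ino80b was not tested. Among all windows of that length 1988 of 32851 held the motif (6.05%). The 2 windows are printed because they belong to the targeted gene and the subunit beside it, with the match in capitals. In Ino80e (chr7:126862323-126862622, minus strand) the match starts 84 bases before the gene start, and in Ino80b (chr6:83125070-83125369, minus strand) it lies on the other strand and starts 217 bases before it. A second window of Ino80e held none.
Ino80e promoter: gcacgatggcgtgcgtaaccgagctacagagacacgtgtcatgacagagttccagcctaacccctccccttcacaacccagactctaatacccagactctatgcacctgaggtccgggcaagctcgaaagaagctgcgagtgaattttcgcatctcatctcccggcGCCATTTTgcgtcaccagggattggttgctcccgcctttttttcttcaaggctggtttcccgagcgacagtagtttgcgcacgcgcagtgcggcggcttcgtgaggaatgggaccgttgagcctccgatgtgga
Ino80b promoter: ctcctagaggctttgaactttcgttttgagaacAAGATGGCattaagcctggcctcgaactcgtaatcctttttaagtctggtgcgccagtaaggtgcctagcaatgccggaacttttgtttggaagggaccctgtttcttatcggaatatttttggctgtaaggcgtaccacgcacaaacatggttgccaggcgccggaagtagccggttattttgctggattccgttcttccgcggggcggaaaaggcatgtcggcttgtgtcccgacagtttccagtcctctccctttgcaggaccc
The motif was held by 65 of 1125 windows (5.78%) of genes higher at an adjusted p under 0.1 in Ino80e siRNA cells, by 38 of 488 (7.79%) of genes lower, and by 1097 of 15313 (7.16%) of all genes tested. These shares describe the letters in the windows and say nothing about binding.

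Across the genome no gene passed an adjusted p of 0.05 between Ino80e and NT siRNA cells (0 of 20663, 0%), although the smallest adjusted p was 0.0533 and 5886 genes (28.5%) had an unadjusted p under 0.05 in limma. At the looser threshold of 0.1 there were 2097 genes (10.1%), 1570 of them higher (7.6%) and 527 lower (2.55%) in Ino80e siRNA cells. The arrays of the groups did not overlap for 8409 genes that were higher (40.7%) and 3535 that were lower (17.1%). The median difference of all genes was 0.19, with quartiles of -0.13 and 0.46, so a gene at 0 lay below the typical gene. The split between directions moved with the scaling: the higher share at 0.1 was 74.9% here, 56.5% after centring each array on its median, and 30.5% in the authors' deposited table. The same controls served all 4 knockdowns, and against them 1319 genes passed 0.05 with Ino80c siRNA (6.38%), 1325 with Ino80b siRNA (6.41%) and 2533 with Ino80 siRNA (12.3%).

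The count against NT turned on single arrays. Without NT replicate 1 the number at 0.05 was 591, and at 0.1 it was 4883. Without NT replicate 2 the number at 0.1 was 13, and without Ino80e replicate 1 or 2 it was 0 or 1. Leaving out an array of another knockdown, which enters only through the shared spread, gave 2635 at 0.1 without either Ino80 array, 114 without either Ino80b array and 10 without either Ino80c array. Values against NT below are therefore measurements with their errors, and a gene under 0.1 is given as such.

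**Figure D2:**
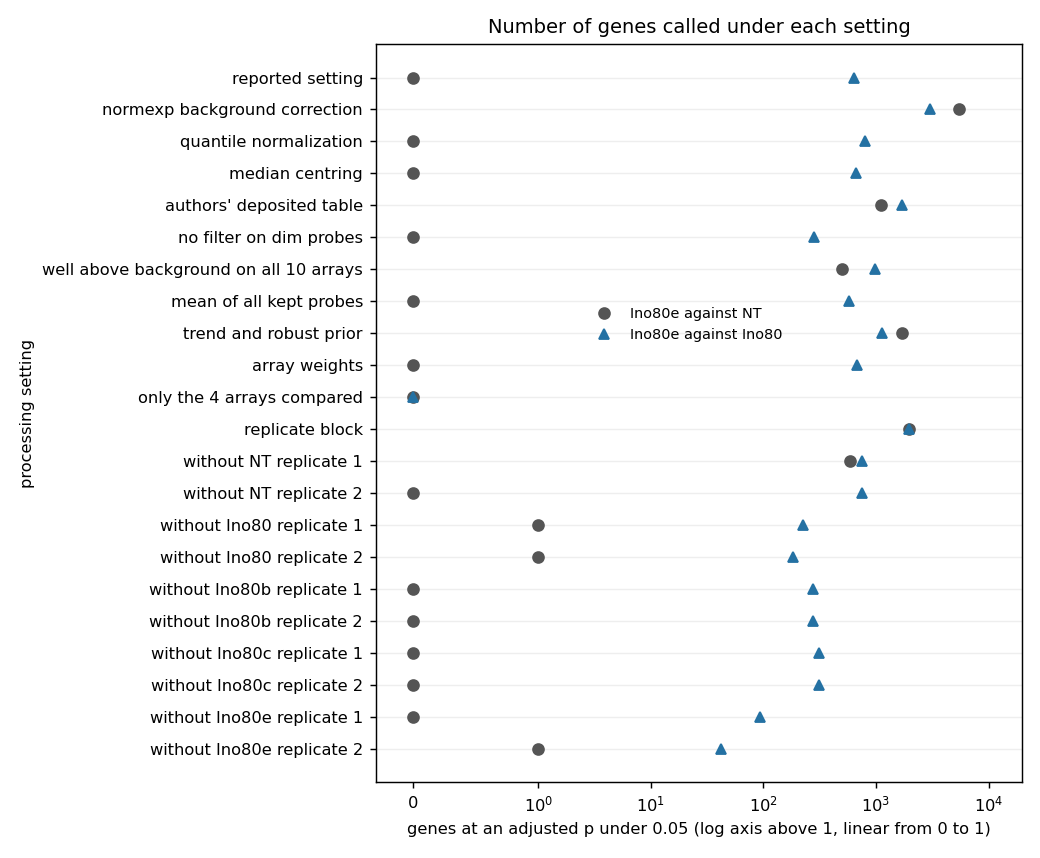
Number of genes at an adjusted p under 0.05 under each processing setting (log axis above 1, linear from 0 to 1), for Ino80e against NT (circles) and Ino80e against Ino80 (triangles). The first runs between 0 and 5428 and the second between 0 and 3023, with 0 for both when only the 4 arrays compared were fitted.

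The 5 genes with the smallest p against NT were dim or of unknown role. AK086512, a transcript known by its array name, read -4.52 and -4.67 in Ino80e siRNA cells and was not well above background in NT cells, where it read -8.48 and -8.39. It was at least 3.71-fold higher with Ino80e siRNA (adjusted p = 0.0533), a bound taken from the lowest signal that stood above background on each NT array. Slc18a2, which loads monoamines into vesicles, read -4.27 and -4.25 with Ino80e siRNA and -5.82 and -6.02 with NT siRNA, a difference of 1.66 ± 0.16 (adjusted p = 0.0649). The transcripts A530040E14Rik (1.86 ± 0.19), BC033606 (1.49 ± 0.16) and 5430432N15Rik (1.11 ± 0.12) had that same adjusted p. In each of the 5 both Ino80e arrays lay above both NT arrays.

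Genes that mark the two-cell-like state, a rare condition of stem cell cultures in which transcripts of the early embryo appear, were the one of 29 gene lists whose median lay farthest above that of all genes. The lists and their members were chosen with earlier results of these data known, so this rank only describes the data. Of 25 listed 14 were on the array and 10 were tested. A probe was tested if well above background on both arrays of some group, so a member dim in NT cells could enter through a knockdown. At an adjusted p under 0.1, 5 of the 10 were higher and none lower, where 7.6% of all genes were higher and 2.55% lower. In 9 of 10 both Ino80e arrays lay above both NT arrays, against 40.7% of all genes. Their median stood 0.74 above that of all genes, and between 0.52 and 0.82 above it under the other scalings. Zscan4c, a zinc-finger protein that marks the state and acts on telomeres, read 1.17 and 0.99 in Ino80e siRNA cells and -0.48 and -0.72 in NT cells, a difference of 1.68 ± 0.22 (adjusted p = 0.0649), and another probe of it differed by 0.96. Usp17la, a deubiquitinase gene of a multicopy family, read -0.43 and -0.77 with Ino80e siRNA, against -1.96 and -2.39 with NT siRNA (1.58 ± 0.25, adjusted p = 0.0687). The groups lay more than 1 log2 unit apart in both genes. Tdpoz1 differed by 1.73, Tcstv3 by 1.13 and Sp110 by 0.66, with adjusted p of 0.0738, 0.0813 and 0.0929. These families hold near-identical copies, so a probe may read several members. Arg2, an arginase, was the member with no separation of the groups, at a difference of -0.20. Without either Ino80e array, either Ino80c array or NT replicate 2, no member had an adjusted p under 0.1, and without either Ino80b array 1 had. The other knockdowns stood higher still: Zscan4c read 1.88 and 1.40 with Ino80c siRNA, 1.70 and 1.59 with Ino80b siRNA, and 2.47 and 2.00 with Ino80 siRNA. Ino80e against Ino80 differed in Zscan4c by -1.15 (adjusted p = 0.043), in Usp17la by -1.26 (adjusted p = 0.049) and in Usp17lb by -1.21 (adjusted p = 0.0349), so these 3 of 10 were lower with Ino80e siRNA. Among all genes 1.14% were lower in that comparison. The 3 calls were close to the threshold: 1 was left without either Ino80c array, either NT array or Ino80 replicate 2, and none without any other 1 array.

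The factors that hold the pluripotent state were mostly measured at or slightly below the control level. Of 38 core and naive pluripotency genes tested 1 was higher and 3 were lower at an adjusted p under 0.1. Among all genes 7.6% were higher and 2.55% lower. The list's median lay 0.22 below that of all genes (0.22 to 0.33 below under the other scalings). Pou5f1, the central POU factor of pluripotency, read 4.84 and 4.94 in Ino80e siRNA cells, against 5.22 and 5.53 in NT cells, a difference of -0.48 ± 0.15 (adjusted p = 0.107). Sox2, its partner on DNA, differed by 0.17. Nanog, the homeodomain factor, read 2.79 and 2.99 with Ino80e siRNA and 2.97 and 3.42 with NT siRNA (-0.30 ± 0.20, adjusted p = 0.359), so its groups overlapped. Klf4, a factor of the naive state downstream of LIF, read 5.65 and 5.73 with Ino80e siRNA and 5.63 and 5.73 with NT siRNA. Tbx3 read 2.80 and 3.30 with Ino80e siRNA and 3.02 and 3.24 with NT siRNA. Neither of these 2 genes separated the groups. Tfcp2l1, another naive factor, read 0.40 and 0.41 with Ino80e siRNA, below 0.67 and 0.94 with NT siRNA (-0.40, adjusted p = 0.152). Esrrb differed by -0.30 and Zfp42 by 0.41. Under 0.1 were Nacc1, a BTB-domain protein of the Nanog network (-0.66 ± 0.14, adjusted p = 0.0786), Zfp57, which maintains methylation at imprinted loci (-1.34 ± 0.29, adjusted p = 0.0808), and Sall4 (-0.58, adjusted p = 0.0877). Dppa3, which protects the maternal genome from demethylation, was the one above NT at that threshold (1.32 ± 0.37, adjusted p = 0.0963).

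**Figure D3:**
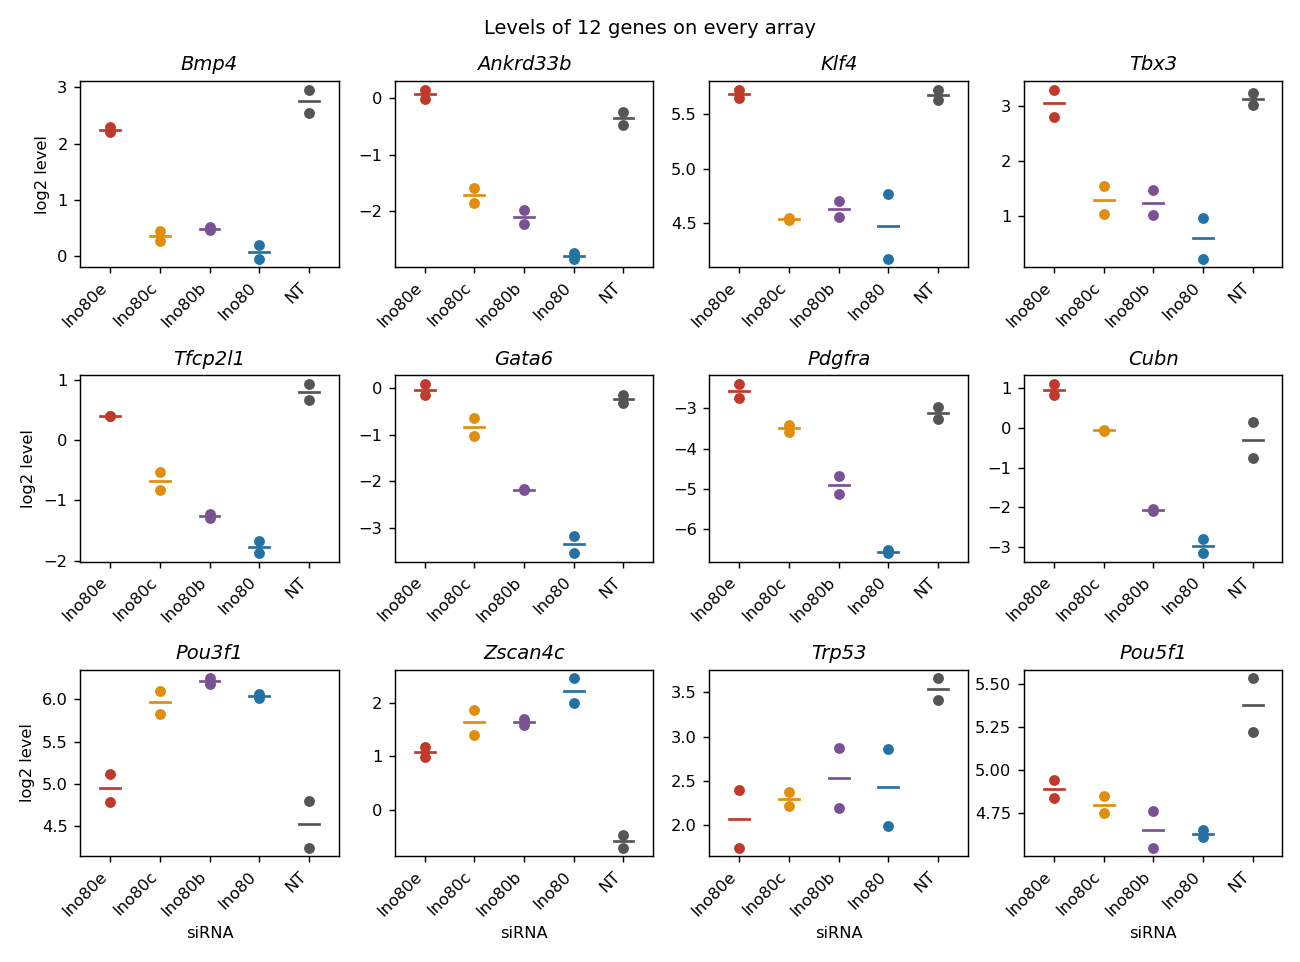
Log2 levels of 12 genes relative to the array's 75th percentile, with groups in the order Ino80e, Ino80c, Ino80b, Ino80 and NT; dots are arrays and bars group means. Klf4, Tbx3, Gata6 and Cubn sit in Ino80e siRNA cells near or above the NT dots and are lower with Ino80 siRNA, while Zscan4c is lowest in NT cells and Trp53 highest.

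Several naive factors differed between Ino80e knockdown and knockdown of the ATPase. Between Ino80e and Ino80 siRNA cells 638 genes passed 0.05 (3.09%), 403 higher (1.95%) and 235 lower (1.14%) with Ino80e siRNA. The higher share of calls was 63.2% here, 80.8% under normexp and 30.6% when the authors' deposited table was fitted. Of the 38 pluripotency genes 8 were higher and none lower. Tfcp2l1 read -1.88 and -1.67 with Ino80 siRNA and so was 2.17 ± 0.16 higher with Ino80e siRNA (adjusted p = 0.00261). Tbx3, at 0.22 and 0.97 with Ino80 siRNA, was 2.46 ± 0.32 higher (adjusted p = 0.0133). Klf4 was 1.22 ± 0.20 higher (adjusted p = 0.0268) and Nanog 1.04 ± 0.20 higher (adjusted p = 0.0452). Tet2, which oxidises methylcytosine, was 1.78 higher (adjusted p = 0.00548), and Nr0b1, Gbx2 and Zfp42 were 1.59, 1.01 and 1.15 higher. Esrrb differed by 1.31 with an adjusted p of 0.0559. The summed linear signal of the 10 stem cell markers, in units of the array's 75th percentile, was 660 to 735 with Ino80e siRNA, 422 to 508 with Ino80 siRNA and 611 to 644 with NT siRNA. Dppa5a and Zfp42, at log2 levels of 8.02 to 8.73 and 6.01 to 7.52 over the arrays, make up most of that sum. Among the dimmer markers Pou5f1, Sall4, Nanog and Esrrb read below NT with Ino80e siRNA, and Sox2 above it. The number of 8 was between 1 and 10 when 1 array was left out, 1 without Ino80e replicate 2, 2 without Ino80e replicate 1, 3 without Ino80 replicate 1, 4 without any one of the Ino80b or Ino80c arrays, and 10 without either NT array. Against Ino80b siRNA 143 genes passed (0.692%), and of the list Tfcp2l1 (1.66, adjusted p = 0.0118) and Tet2 (1.53, adjusted p = 0.0161) were higher with Ino80e siRNA; without any one of the Ino80e or Ino80b arrays none was, and without either Ino80 array 3 were. Against Ino80c siRNA, on the same slide, 7 genes passed (0.0339%) and no pluripotency gene was among them. There Klf4 differed by 1.15 (adjusted p = 0.1) and Tfcp2l1 by 1.08 (adjusted p = 0.0678). The 2 Ino80e and 2 Ino80 arrays lay on different slides, as did the Ino80b arrays, so slide and treatment cannot be told apart in those comparisons.

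Primitive endoderm genes, which stem cell cultures express at low level as some cells drift toward the extraembryonic lineage, were measured near or above the control level. Of 28 tested 4 were higher and 1 was lower than NT at an adjusted p under 0.1, where 7.6% and 2.55% of all genes were. The list's median lay 0.06 above that of all genes. Gata6, the transcription factor that drives the lineage, read -0.15 and 0.09 in Ino80e siRNA cells and -0.15 and -0.31 in NT cells, a difference of 0.20, with dimmer probes at -0.34 and 0.19. Cubn, an endocytic receptor of visceral endoderm, read 0.82 and 1.10 with Ino80e siRNA, above 0.14 and -0.76 with NT siRNA (1.27 ± 0.29, adjusted p = 0.0814). Dab2, an endocytic adaptor, differed by 0.62 (adjusted p = 0.0937), and by -0.32 on a dimmer probe. The nuclear receptor Hnf4a differed by 1.24 ± 0.21 (adjusted p = 0.0708) and was dim in both groups. Follistatin, Fst, an activin antagonist, was the one below NT at an adjusted p under 0.1 (-0.85, adjusted p = 0.0929). Genes of the basement membrane that this lineage secretes had differences below 0, with Col4a1 at -0.41, Col4a2 at -0.49 and Lama1 at -0.32 (0.31 on a dimmer probe), none under 0.1.

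The same list held the largest share of called genes among the 29 lists when Ino80e was set against Ino80 knockdown. As the lists were chosen with earlier results of these data known, this rank is a description and no independent evidence. Of its 28 genes 12 were higher with Ino80e than with Ino80 siRNA and none lower, where 1.95% of all genes were higher. Gata6 read -3.54 and -3.16 with Ino80 siRNA and was 3.32 ± 0.19 higher with Ino80e siRNA (adjusted p = 0.0013). Pdgfra, a receptor that marks primitive endoderm, read -2.75 and -2.39 with Ino80e siRNA and was not well above background with Ino80 siRNA, so it was at least 13.6-fold higher (adjusted p = 0.0013). Cubn was 3.93 ± 0.29 higher (adjusted p = 0.00261) than in Ino80 siRNA cells, where it read -3.15 and -2.79. The lineage factors Sox7 (3.13, adjusted p = 0.00319), Sox17 (2.13, adjusted p = 0.0111) and Foxa2 (2.34, adjusted p = 0.0149) were higher too. So were the matrix genes Lama1 (1.67), Col4a2 (1.42) and Col4a1 (1.09). Against Ino80b siRNA 8 of the 28 were higher and none lower, where 0.445% of all genes were, among them Gata6 (2.15), Pdgfra (2.33), Cubn (3.02) and Sox7 (2.55). Leaving out Ino80e replicate 2 lowered the 12 to 4, Ino80e replicate 1 to 6 and either Ino80 array to 9, while the 8 became 0 without any one of the Ino80e or Ino80b arrays, 5 without either Ino80c array and 6 without any one of the Ino80 or NT arrays. The Ino80 and Ino80b arrays lay on another slide than the Ino80e arrays, so slide and treatment cannot be told apart in these counts. Within the slide, against Ino80c siRNA, none of the 28 had an adjusted p under 0.1 in limma (smallest 0.102). The list's median lay 0.33 above that of all genes there, and Gata6 differed by 0.81 (adjusted p = 0.183). The summed linear signal of 6 primitive endoderm markers, on the same scale, was 3.16 to 3.79 with Ino80e siRNA, 1.87 to 2.34 with Ino80c, 0.985 to 0.996 with Ino80b, 0.726 to 0.727 with Ino80 and 2.5 to 2.85 with NT siRNA. Dab2 and Gata6 reached the highest levels of the 6, at 0.71 and 0.09, and weigh most in the largest sums. All 6 were well above background on each array except Pdgfra on the 2 Ino80 arrays. In RNA of whole cultures, fewer cells of a type and less RNA per cell cannot be told apart.

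**Figure D4:**
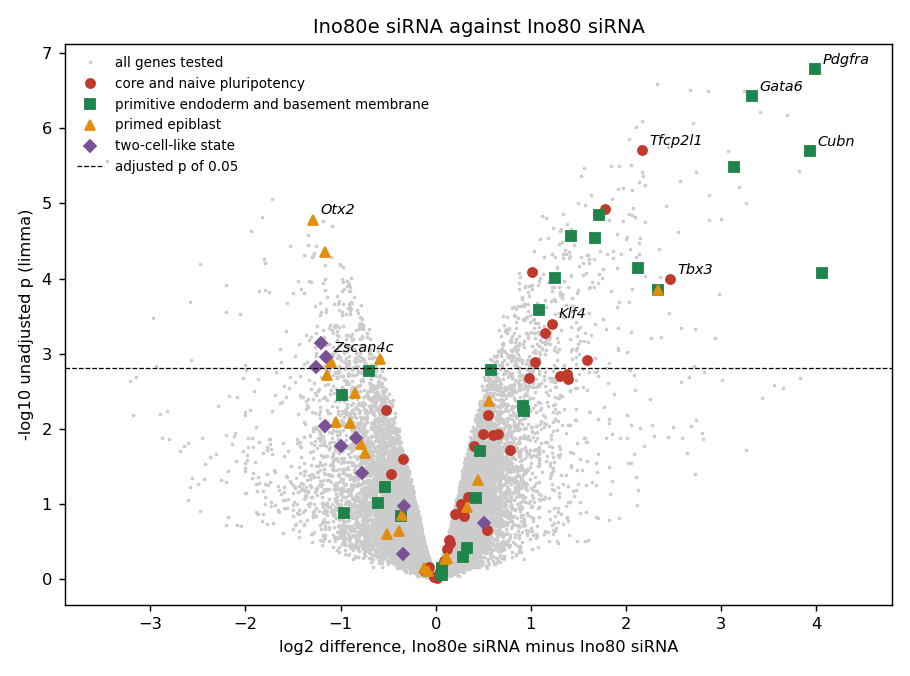
Each point is a gene, by its log2 difference (Ino80e minus Ino80 siRNA, horizontal) and the negative log10 of its unadjusted limma p (vertical); the dashed line marks an adjusted p of 0.05 and 4 gene lists are coloured. Endoderm and pluripotency genes above the line lie on the right, primed epiblast and two-cell-like genes above it mostly on the left.

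Genes of the primed epiblast, the state that follows the naive one, gave little against NT. Of 21 tested none was higher and 1 was lower at an adjusted p under 0.1: Sox4, an SRY-box factor (-0.89 ± 0.20, adjusted p = 0.081). At that threshold 7.6% of all genes were higher and 2.55% lower. Pou3f1, a POU factor of the primed state, read 5.11 and 4.78 in Ino80e siRNA cells and 4.8 and 4.24 in NT cells (0.43), with overlap. Otx2, the homeodomain factor that drives exit from naive pluripotency, read 0.40 and 0.28 with Ino80e siRNA and 0.38 and 0.54 with NT siRNA. Against Ino80 siRNA 4 of the 21 were lower with Ino80e siRNA and 1 was higher, where 1.14% of all genes were lower: Otx2 by -1.29 (adjusted p = 0.00588), Sall2 by -1.16 (adjusted p = 0.00923), Pou3f1 by -1.10 (adjusted p = 0.0456) and the methyltransferase Dnmt3b by -0.59 (adjusted p = 0.0438). The one higher was Foxa2, which the endoderm list also holds. The number lower was 7 without either NT array, 0 without Ino80e replicate 2 and 2 without any other 1 array. Sall2 was also lower than with Ino80b siRNA (-1.02, adjusted p = 0.0288), but no gene of the list was called there without any one of the Ino80e, Ino80c, Ino80b or Ino80 arrays, and 2 were without either NT array. Of 25 neural genes 3 were higher than NT under 0.1, with the homeodomain factor Nkx6-1, which was dim, at 0.65 ± 0.14 (adjusted p = 0.0789).

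Of the signalling pathways that stem cells depend on, BMP held a gene that differed between Ino80e knockdown and each of the 3 other knockdowns. Bmp4, the ligand that with LIF supports self-renewal, read 2.20 and 2.29 in Ino80e siRNA cells and 2.54 and 2.96 in NT cells (-0.50 ± 0.17, adjusted p = 0.125). It read 0.44 and 0.27 with Ino80c siRNA and 0.20 and -0.05 with Ino80 siRNA. Bmp4 was thus higher with Ino80e siRNA by 1.90 ± 0.17 against Ino80c on the same slide (adjusted p = 0.0339), by 1.76 against Ino80b (adjusted p = 0.0118) and by 2.17 ± 0.17 against Ino80 (adjusted p = 0.0032). The calls against Ino80c and Ino80b were lost without either Ino80e array. The call against Ino80, on another slide, was kept when any 1 array was left out, with a difference of 2.05 to 2.3. Its probe is shown because these tests rest on it; it lies on chromosome 14, minus strand, at chr14:41704207-41704266 on mm7.
Bmp4 probe: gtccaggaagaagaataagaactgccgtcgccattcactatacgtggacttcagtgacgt
Of 25 BMP and Id genes 4 were higher than NT at an adjusted p under 0.1 and none lower. Among all genes 7.6% were higher and 2.55% lower. Bmp8b, another ligand, read -1.75 and -1.61 with Ino80e siRNA and -2.64 and -2.55 with NT siRNA (0.92 ± 0.12, adjusted p = 0.0649), and was lower than with Ino80 siRNA by -0.77 (adjusted p = 0.0276). The receptor Bmpr2 differed from NT by 0.60 ± 0.14 (adjusted p = 0.0852), whereas its 2 dimmer probes were at -0.45 and -0.17. Of 24 FGF and ERK genes 1 was higher and 2 were lower under 0.1, with the receptor Fgfr1 at -0.97 ± 0.19 (adjusted p = 0.0733) and the immediate early factor Egr2 at 0.79 ± 0.16 (adjusted p = 0.0786). None of 14 LIF and Stat3 genes was under 0.1; the phosphatase Ptpn11 (0.70 ± 0.21, adjusted p = 0.105) and the kinase Jak1 (0.55 ± 0.17, adjusted p = 0.106) came nearest, but a second Jak1 probe of similar brightness was at -0.19 and dimmer Ptpn11 probes were at -0.23 and 0.05. Of 19 Nodal and activin genes 1 was higher, Gdf1 at 0.71 ± 0.17, and 2 were lower.

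**Figure D5:**
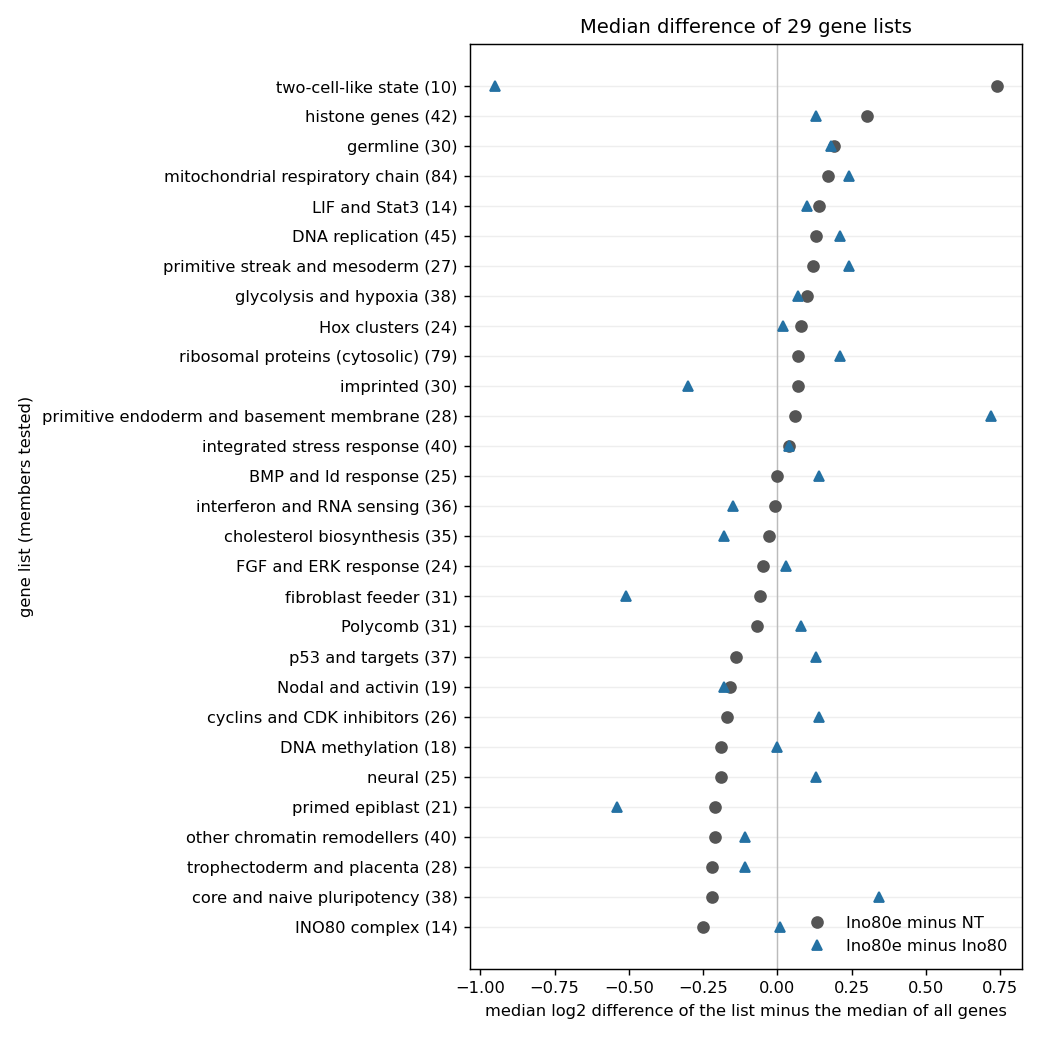
Median log2 difference of each of the 29 gene lists minus the median of all genes, for Ino80e minus NT (circles) and Ino80e minus Ino80 (triangles). The two-cell-like list stands at 0.74 against NT and -0.95 against Ino80, and the primitive endoderm list at 0.06 and 0.72.

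Among chromatin and p53 genes several had differences from NT below -1 in Ino80e siRNA cells. Of 31 Polycomb genes 1 was higher and 4 were lower at an adjusted p under 0.1. The shares over all genes were 7.6% higher and 2.55% lower. Pcgf2, a subunit of Polycomb repressive complex 1, read -1.04 and -1.45 with Ino80e siRNA and 0.08 and 0.75 with NT siRNA (-1.66 ± 0.32, adjusted p = 0.0734), and L3mbtl2 differed by -0.60 ± 0.14 (adjusted p = 0.0811). Of 40 genes of other remodellers 2 were higher and 2 lower, with Smarcd1 of the BAF complex (-1.15 ± 0.27, adjusted p = 0.0829) and Gatad2b of NuRD (-0.72 ± 0.16, adjusted p = 0.0808; -0.70 and 0.24 on dimmer probes) as the lower ones. Trp53 read 2.39 and 1.74 with Ino80e siRNA and 3.42 and 3.66 with NT siRNA (-1.47 ± 0.36, adjusted p = 0.0865), but a second probe of it differed by -0.12. Of 37 p53 genes 1 was higher than NT at an adjusted p under 0.1, the atypical cyclin Ccng2 (0.87 ± 0.20, adjusted p = 0.081), and 2 were lower. Set against Ino80c, Ino80b and Ino80 siRNA, Pcgf2 differed by 0.08, -0.12 and -0.08, Smarcd1 by 0.01, -0.29 and -0.45, and Trp53 by -0.23, -0.46 and -0.36, none with an adjusted p under 0.1. Of 18 DNA methylation genes 1 was higher (Dppa3) and 1 lower (Zfp57).

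Genes of growth and metabolism mostly differed from NT by small amounts, and several of the lists leaned above NT on the scale used here. Of 42 histone genes 7 were higher and none lower at an adjusted p under 0.1, where 7.6% of all genes were higher, and in 37 of 42 both Ino80e arrays lay above both NT arrays, against 40.7% of all genes. The list's median stood 0.30 above that of all genes, and 0.21 to 0.30 above under every scaling tried. H2bc1 differed by 0.88 ± 0.21 (adjusted p = 0.0836) and H2ac15 by 0.71 ± 0.19 (adjusted p = 0.0925). Histone genes cluster and resemble each other, so their probes may share transcripts. Of 84 respiratory chain genes 6 were higher and 2 lower, shares near the 7.6% and 2.55% of all genes, with Ndufa12 of complex I at 0.59 ± 0.12 (adjusted p = 0.0786) and Uqcrq of complex III at 0.72 ± 0.17 (adjusted p = 0.0852). Both Ino80e arrays lay above both NT arrays in 66 of these 84, 66 of 79 ribosomal protein genes and 30 of 45 replication genes. They lay below in 5, 3 and 4, against 17.1% of all genes. The lean moved with the scaling: after quantile normalization 58 of the 84 and 45 of the 79 had differences above 0. Of 45 DNA replication genes 1 was higher, Orc6 at 0.52 ± 0.13, and 1 lower, Pola2 at -0.68 ± 0.16 (-0.02 on a dimmer probe). Of 79 cytosolic ribosomal protein genes 2 were higher, Rpl21 (0.51 ± 0.12, but -0.06 on a second probe) and Rpl35 (0.44 ± 0.13), and the list's median lay 0.07 above that of all genes here but up to 0.04 below it (-0.04) under another scaling. Of 38 glycolysis and hypoxia genes 4 were higher and 1 was lower, the pyruvate kinase Pkm at -0.71 ± 0.18 (adjusted p = 0.091). Of 35 cholesterol genes 2 were higher and 2 lower, with Acat2 at -0.89 ± 0.16 (adjusted p = 0.0733). Dhcr7, the last enzyme of the pathway, stood at 0.73 ± 0.14 (adjusted p = 0.0741) on its brighter probe and at -0.83 on its dimmer one, so its direction was not settled. Stress response genes were split, with 3 of 40 higher and 3 lower: Ppp1r15a, which reverses the translational block, stood at -0.77 ± 0.15 (adjusted p = 0.0733) and Herpud1 at 0.71 ± 0.16 (adjusted p = 0.081). None of 26 cyclins and CDK inhibitors was under 0.1, where Cdkn2a stood at 0.62 ± 0.18 (adjusted p = 0.103) and Ccnd3 at -0.46 ± 0.14 (adjusted p = 0.104). Of 36 interferon and RNA sensing genes 3 were higher and 1 was lower, with Irf3 at 0.64 ± 0.15 (-0.07 on a dimmer probe) and the peptide transporter Tap1 at -0.74 ± 0.19.

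Imprinted genes and genes of other lineages gave scattered values. Of 30 imprinted genes none was higher and 3 were lower than NT under 0.1, among them Nnat (-0.91 ± 0.18, adjusted p = 0.0734) and Peg10 (-1.50 ± 0.30, adjusted p = 0.076). The shares over all genes were 7.6% higher and 2.55% lower. Of 30 germline genes 4 were higher and none lower, with Spo11, the meiotic double-strand break enzyme, at 1.77 ± 0.33 and the piRNA pathway gene Tdrd1 at 0.92 ± 0.17 (adjusted p = 0.0733 for each). Of 28 trophectoderm and placenta genes 2 were higher, Bmp8b and the homeobox gene Rhox6 (0.83 ± 0.14, adjusted p = 0.0708), and 3 lower. Of 27 primitive streak and mesoderm genes 3 were higher, with the Wnt target Sp5 at 0.92 ± 0.20 (adjusted p = 0.0808), and 1 was lower, Evx1 at -1.26 ± 0.33 (adjusted p = 0.0902). None of 24 Hox genes was under 0.1; Hoxb6 stood at -0.65 ± 0.21, with a dimmer probe at 1.09, and Hoxb7 at 0.55 ± 0.19. Of 31 fibroblast genes 2 were higher and 2 lower, Col5a2 (-0.84 ± 0.15, adjusted p = 0.0733) and Sfrp1 (-0.62 ± 0.14, adjusted p = 0.081). The summed signal of 11 fibroblast markers was 8.94 to 9.62 with Ino80e siRNA, 12.1 to 13.7 with Ino80c, 10.3 to 11.3 with Ino80b, 20 to 21.1 with Ino80 and 7.64 to 9.22 with NT siRNA. Of those markers 6 to 8 were well above background on an Ino80e array, 8 to 10 on an Ino80 array and 8 or 9 on an NT array, and Lum, Col6a1 and Postn were above it on only 1, 2 and 3 of the 10 arrays. Tagln was the brightest of the markers, at log2 levels of 2.66 to 4.26 over the 10 arrays, and Thy1, the next, reached 0.23. The sum therefore mostly follows Tagln. The Ino80 arrays differed from the Ino80e arrays in that sum as well as in the lineage genes above, and its part in those differences was not tested.

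Within the shared slide, Ino80e and Ino80c knockdown cells differed at 7 genes, 4 higher (0.0194%) and 3 lower (0.0145%) with Ino80e siRNA. Ino80c itself was higher by 2.85 ± 0.16 (adjusted p = 0.00527), as the target of the other siRNA. Besides Bmp4, the higher genes were AK086512, at least 2.73-fold (adjusted p = 0.0311), and Ankrd33b, an ankyrin-repeat gene. Ankrd33b read -0.01 and 0.15 in Ino80e siRNA cells, against -1.59 and -1.85 in Ino80c siRNA cells and -0.25 and -0.47 in NT cells, so it was 1.79 ± 0.16 higher than with Ino80c siRNA (adjusted p = 0.0339). It was also 2.86 higher than with Ino80 siRNA (adjusted p = 0.0013). Igdcc4, an immunoglobulin-family membrane protein, read -0.82 and -0.80 in Ino80e siRNA cells, against 0.43 and 0.68 in Ino80c siRNA cells and -0.68 and -0.66 in NT cells, and was lower by -1.37 ± 0.13 (adjusted p = 0.0387). For Bmp4, Ankrd33b and Igdcc4 the Ino80e arrays thus lay nearer to NT than to Ino80c. The remaining 2, the olfactory receptor Olfr533 and the dehydrogenase Dhrs9, were not well above background with Ino80e siRNA and were at least 1.98-fold and 1.39-fold lower (adjusted p = 0.0311 for each). The number was 0 without either Ino80e array or Ino80c replicate 2, 2 without Ino80c replicate 1, 1 without either Ino80b array, 5 without either Ino80 array and 17 without either NT array. The probes of Ankrd33b (chr15:31408022-31408081, minus strand) and Igdcc4 (chr9:65167156-65167215, plus strand, both mm7) are shown by their first 30 bases, as the 2 same-slide differences beside Bmp4 with every array above background.
Ankrd33b probe: cctgagcattctatacactaagaggtcagt
Igdcc4 probe: gcaaataagtaataaatctggtatctgcct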

How the data were processed

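The sample titles gave each array its group and replicate. The arrays were Agilent 4x44K arrays read in the green channel, although the dye is Cy5 in the labels. Feature Extraction 9.5.3.1 gave, per the file headers, the intensity of 45018 spots per array as a background-subtracted processed signal, not scaled between arrays. The log2 values of the authors' deposited table equalled the log2 mean signal plus 1 constant per array, with column medians of 6.76 to 6.87; where those constants come from, and so its scaling, stays unknown. It served as an alternative.

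Control and flagged spots were left out, spots of a probe averaged (41143 probes kept), and log2 of the processed signal taken minus the array's 75th percentile. Of all probes 66.4% to 79% were well above background on an array and none was saturated; the number of arrays limits the precision. Probes had to be well above background on both arrays of some group, and the brightest probe stood for each gene, giving 20663 genes. Names came through RefSeq accessions for 22951 probes, of which 5141 changed symbol, while 18223 kept the name of the array; probe coordinates are on mm7.

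limma 3.58.1 (R 4.3.3) was fitted to all 10 arrays with group as the one factor (lmFit, eBayes), with Benjamini-Hochberg adjustment over all genes, and tested on simulated data. Named genes were all INO80 complex genes, the 5 of smallest p, 12 fixed genes, up to 2 of smallest p per list against NT, up to 5 called per list and direction against other knockdowns, and the genes called against Ino80c; further genes were chosen after their values were seen, and a few genes are not reported here. The members and the 29 gene lists were chosen with earlier results of these data known. Alternatives covered background correction, scaling, filters, probe choice, the variance model, the arrays fitted, a replicate block and leaving out each array.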

Additional observations from a re-analysis of the deposited data

How the results depend on the processing

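The number of genes at an adjusted p under 0.05 was 0 for Ino80e against NT, 7 against Ino80c, 638 against Ino80 and 143 against Ino80b, and it moved with the processing in all 4 comparisons. In that order it was 5428, 158, 3023 and 472 with normexp as the background correction, 1107, 167, 1694 and 413 when the authors' deposited table was fitted, and 1694, 129, 1139 and 371 with a trended, robust prior. It was 500, 78, 984 and 311 over genes well above background on all 10 arrays, and 0 in all 4 when only the 4 arrays compared were fitted, which leaves the fit fewer samples. Without a filter on dim probes it was 1 against Ino80c, 282 against Ino80 and 46 against Ino80b. Against Ino80c it was 26 after quantile normalization, 14 after median centring, 245 with array weights and 17 without the NT arrays in the fit. Against Ino80b it was 720 with array weights. Leaving out 1 array at a time gave 0 to 591 against NT, 0 to 17 against Ino80c, 42 to 747 against Ino80 and 0 to 139 against Ino80b.

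The 2097 genes at an adjusted p under 0.1 against NT became 8987 with normexp, 705 after median centring, 2 without the filter, 4058 over genes above background on all 10 arrays, 992 with the mean of all probes, 4600 with the trended prior, 1 with array weights, 0 with the 4 arrays only and 0 to 4883 without 1 array. The median difference of all genes, 0.19, was 0.25 with normexp, 0.08 after quantile normalization or median centring, 0.0 in the authors' deposited table, 0.22 without the filter, 0.13 with the mean of all probes and 0.1 to 0.27 without 1 array. The higher share of calls against Ino80b was 64.3% here, 54.4% after quantile normalization and 52.1% with the authors' deposited table. The cause of these shifts was not tested.

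Ino80e RNA stayed below NT throughout. It passed 0.05 with normexp (-1.22, adjusted p = 0.0168), when fitted to the authors' deposited values (-1.41, adjusted p = 0.0368) and with the trended prior (-1.2, adjusted p = 0.0363), and ranged from -1.5 to -0.9 without 1 array. The 2 replicates of a group share only a number with those of the others. The difference between replicates 1 and 2 correlated across genes at 0.303 between Ino80e and NT, and at 0.137, 0.321 and 0.282 between Ino80e and Ino80c, Ino80b and Ino80. With the replicate block the counts at 0.05 were 1948 against NT, 302 against Ino80c, 1972 against Ino80 and 841 against Ino80b, 6379 genes had an adjusted p under 0.1 against NT, and Ino80e RNA differed by -1.2 (adjusted p = 0.0425). In Ino80e against Ino80, Bmp4, Gata6, Pdgfra, Cubn and Tfcp2l1 kept their call under every alternative run except the 4 arrays only; Pdgfra was not among the genes above background on all 10 arrays, so that alternative gave no value for it. Tbx3, Klf4, Nanog and Zscan4c lost theirs under 4, 9, 11 and 14 of 22 alternatives.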

Other observations

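The largest differences against NT at an adjusted p under 0.1 were mostly of dim probes; these genes were chosen after their values were seen. Of the 12 largest above NT, 10 were not well above background on either NT array, among them Oog2, an oocyte gene (at least 9.06-fold higher with Ino80e siRNA, adjusted p = 0.0733), Naip6, a sensor of bacterial protein (at least 7.16-fold, adjusted p = 0.0649), Smad9, a transducer of BMP signals (at least 6.73-fold, adjusted p = 0.0937), and Heyl, a Notch target (at least 3.98-fold, adjusted p = 0.0649, but a second dim probe of it differed by -0.82). Of the 12 largest below NT, 6 were above background in both groups. Slc4a7, a bicarbonate transporter, read 1.89 and 1.84 in Ino80e siRNA cells and 3.70 and 5.81 in NT cells (-2.89 ± 0.68, adjusted p = 0.0844). The forkhead factor Foxp4 read -2.47 and -2.98 with Ino80e siRNA, against -1.14 and -0.08 with NT siRNA (-2.12 ± 0.39, adjusted p = 0.0733). Sf3a2, a splicing factor subunit, read -2.28 and -2.98 with Ino80e siRNA, against -0.89 and -0.31 with NT siRNA (-2.03 ± 0.37, adjusted p = 0.0733). The 2 NT arrays lay far apart in Slc4a7, by more than 2 log2 units.

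Against Ino80 siRNA, 5 of 28 trophectoderm and placenta genes were higher and 1 was lower with Ino80e siRNA, where 1.95% of all genes were higher and 1.14% lower; the list's median lay 0.11 below that of all genes (-0.11). Gjb5 (2.10, adjusted p = 0.00182) encodes a connexin, Lgals3 (2.14, adjusted p = 0.00374) a galectin, Gata2 (1.33) a zinc-finger factor and Rhox5 (2.09) a homeodomain protein, and these 4 were higher. Dkk1, a Wnt antagonist, was 3.69 higher (adjusted p = 0.00174) and Inhbb, an activin subunit, 2.35 higher (adjusted p = 0.00921), while the other activin subunit Inhba was 1.64 lower (-1.64). Of the fibroblast genes Dcn (-1.63), Tagln (-1.30) and Col5a2 (-1.02) were lower and Sfrp1 (0.93) was higher.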
